A study of Homo sapiens with 4 samples.

Results

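The kinesin superfamily was followed by mRNA sequencing in NTERA2, an established human line derived from an embryonal carcinoma. Its members were taken as every gene whose symbol is KIF with a number and at most a short letter suffix, together with KIFC1, KIFC2 and KIFC3, which gave 42 genes of the 26364 in the deposited tables. There are 2 groups of 2 libraries: LacZ, replicates 1 and 3, and sh60, replicates 1 and 2, both with BEND3 in their genotype label. BEND3 is a BEN-domain repressor of transcription; taking LacZ for the control and sh60 for a hairpin that targets BEND3 is a reading of those names, which the labels leave unexplained. All 4 libraries share the line, given as clone CRL-1973, with no further allele or agent named, and the labels give no time of harvest. Nothing in them tells separate cultures from repeat preparations, so p-values measure only the spread between these libraries, which may be technical.

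Library totals ran from 30338285 to 44788461 counts, and the kinesins took 89403 to 125266 of them. BEND3 itself (hg19 chromosome 6, 107386385 to 107435636) measured 68.8 CPM in LacZ replicate 1, 79.3 in LacZ replicate 3, 55.7 in sh60 replicate 1 and 51.96 in sh60 replicate 2, with both sh60 libraries below both LacZ libraries (log2 fold change -0.46 with an SE of 0.0982, adjusted p = 0.00168 by edgeR). It did not pass once LacZ replicate 3 was left out (edgeR adjusted p = 0.153). The labels call the line a lung carcinoma. Of 8 lung epithelium markers, SFTPB and SCGB1A1 had 0 counts in every library and the whole list summed to at most 0.784 CPM, while 8 embryonal carcinoma markers, among them POU5F1 and LIN28A, summed to between 4294.1 and 4838.4 CPM. Of the latter 8, edgeR called 3 lower and 1 higher in sh60 (13.0% and 15.8% of all genes tested). DNMT3B, TDGF1 and NANOG fell (log2 fold changes -0.72, -0.49 and -0.25), and SOX2 rose (0.31). CPM are counts scaled to a common library size, with TMM factors. RPKM are CPM per kilobase of exon, used for the order, sums and shares of kinesin genes. Sums over lists of other genes are in CPM.

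Kinesins are motor proteins that burn ATP to walk along microtubules or to take their ends apart. One set builds the mitotic spindle, moves chromosomes and closes the cleavage furrow, and its genes are typically switched on late in the cell cycle. Another set carries vesicles, mitochondria and proteins along the microtubules of resting and dividing cells, in neurons over the length of the axon, and a further set works in cilia. The contrast drawn here is between 4 spindle and cytokinesis motors (KIF11, KIF20A, KIF23 and KIFC1) and the 9 transport motors of the KIF1, KIF3 and KIF5 types.

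In sh60, 12 kinesin genes fell and 6 rose out of 38 with enough counts to be tested, and 20 did not pass (edgeR's quasi-likelihood test, Benjamini-Hochberg adjusted p under 0.05 over 16040 genes). Over all genes tested, 13.0% fell and 15.8% rose (2084 and 2540 genes), against 31.6% and 15.8% of the tested kinesins. With trends in GC content and length removed, 3677 genes fell and 2950 rose, among them 19 and 6 kinesins. Log2 fold changes were below 0 in 25 of the 38, beside 50.5% of all genes tested. Their median was -0.21, beside -0.0042 over all genes tested. Of the 12 that fell, 9 are mitotic motors. All 6 that rose were listed here as transport motors: KIF1A, KIF1C, KIF5A, KIF13A, KIF21A and KIFC3. The largest changes were falls of 2 transport motors, KIF5C and KIF21B, which were the only kinesins called with a change of at least 2-fold; 2.25% of all genes tested fell that far and were called.

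**Figure D1:**
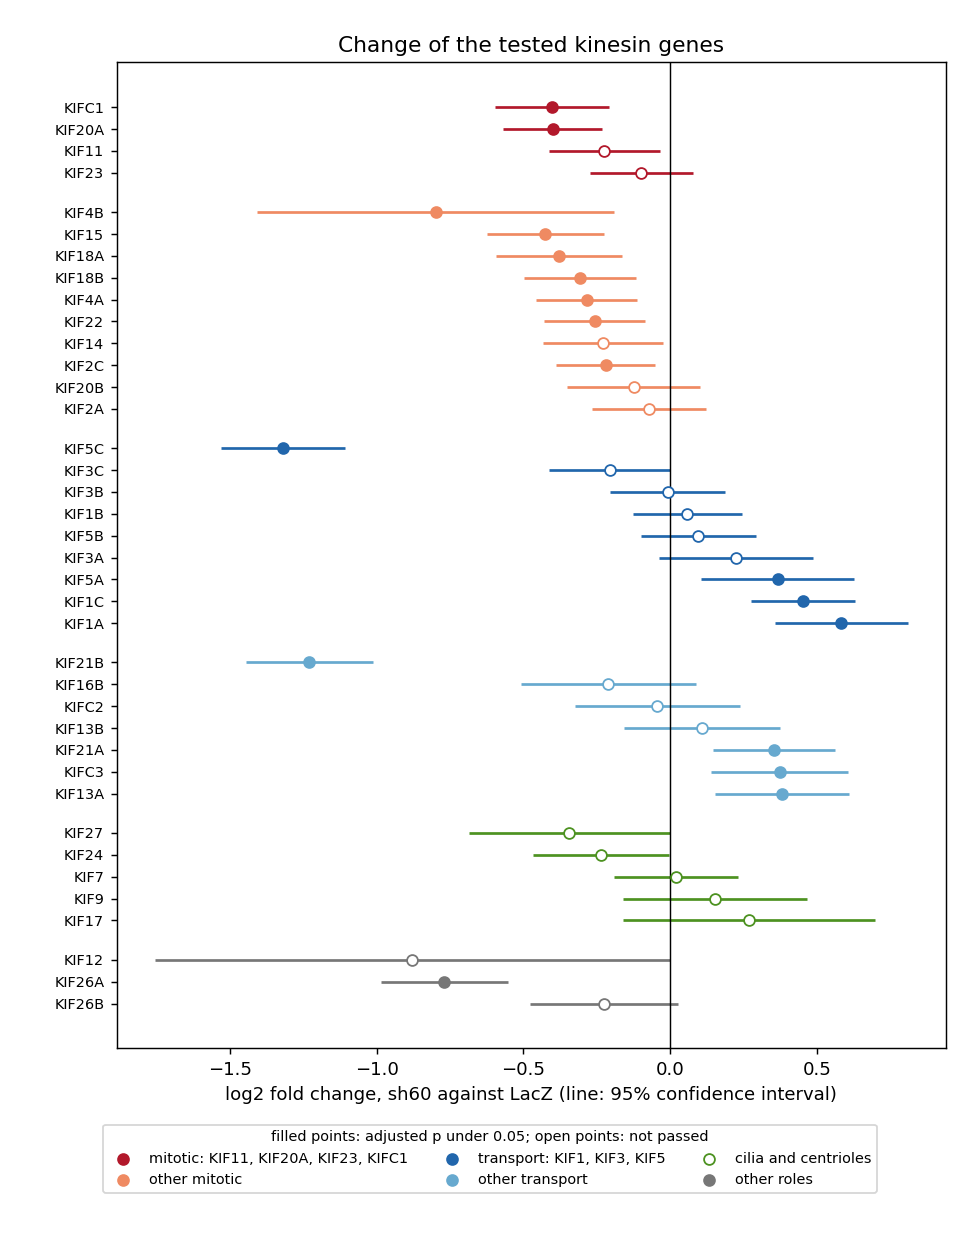
Log2 fold change of the 38 tested kinesin genes, sh60 against LacZ, with the 95% confidence interval as a line, grouped by role; filled points passed an adjusted p of 0.05. The 14 tested mitotic motors all lie left of 0, between -0.80 and -0.07, while transport motors lie on both sides, with KIF5C at -1.32 and KIF1A at 0.58.

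Both sh60 libraries lay below both LacZ libraries for 21 of the tested kinesins (32.3% of all genes tested) and above them for 8 (32.1% of all genes tested); 9 overlapped. The counts of calls moved with single libraries, for kinesins and over all genes tested alike. Among these fits, both kinds of count were lowest without LacZ replicate 3. Both counts of genes that fell were highest without sh60 replicate 1. Without LacZ replicate 1, 4 kinesins fell and 4 rose, without LacZ replicate 3, 3 fell and 1 rose, and without sh60 replicate 1, 18 fell and 5 rose. KIF5C, KIF21B and KIF26A fell and KIF1A rose under each of the 12 alternatives tried.

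**Figure D2:**
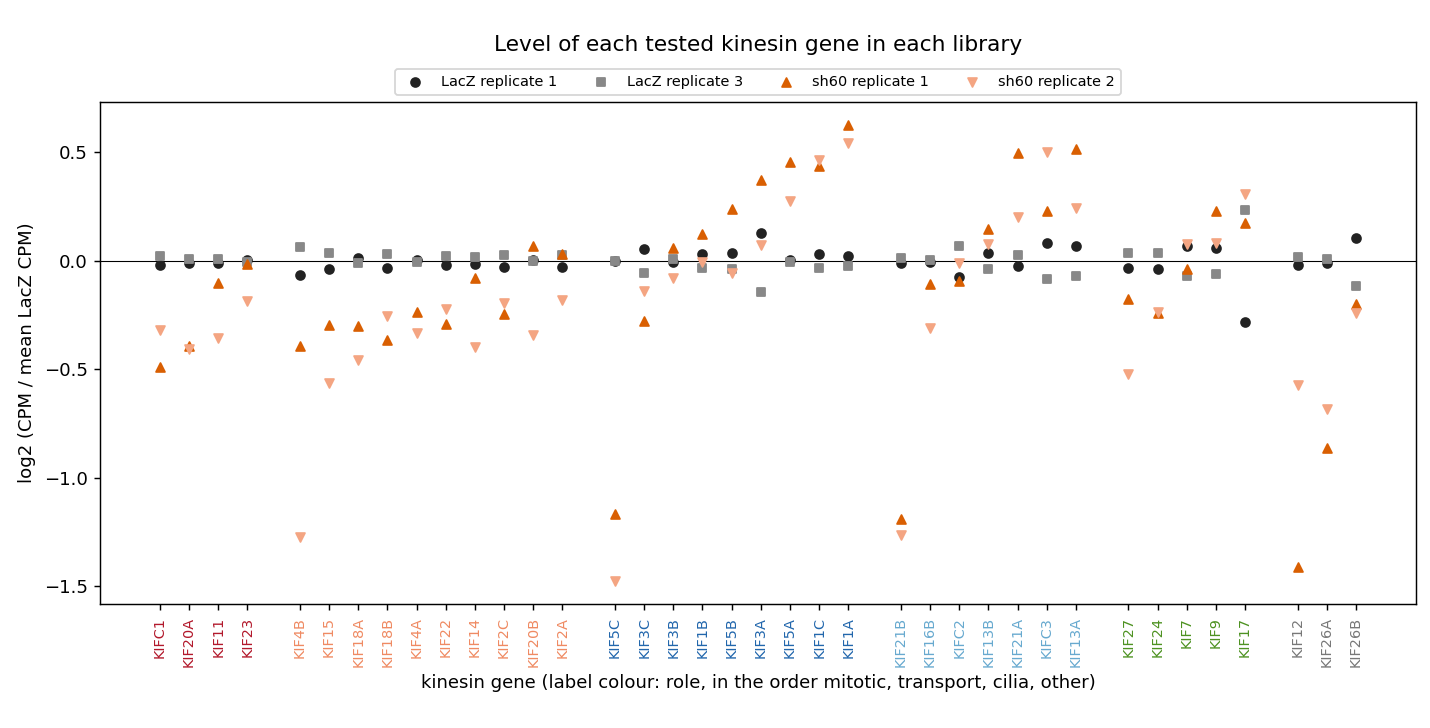
Level of each tested kinesin gene in each library as log2 of its CPM over the mean CPM of the LacZ libraries, with gene names coloured by role (reds mitotic, blues transport, green cilia and centrioles, grey other). The LacZ libraries (black circles, grey squares) stay close to 0 for most genes, the sh60 libraries (triangles) lie below them for most mitotic motors, and KIF5C and KIF21B stand lowest among the transport motors.

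By level per length, the family was led by mitotic motors. In LacZ, KIF22, a chromosome-arm motor, stood first at 67.7 and 69.7 RPKM in replicates 1 and 3, followed by the microtubule depolymerase KIF2C at 64.5 and 66.9 RPKM, KIF23 at 57.4 and 57.1 RPKM and KIF20A at 53.0 and 53.7 RPKM. The highest transport motor was KIF5B, sixth at 38.5 and 36.6 RPKM. In the LacZ order, 31 of 41 neighbouring pairs did not overlap between their 2 libraries, but KIF11 and KIFC1 did (35.4 and 35.96 against 34.5 and 35.5 RPKM). Of 18 kinesins at 10 RPKM or more, 13 are mitotic. The mitotic motors held 73.9% and 75.0% of the family's summed RPKM in LacZ replicates 1 and 3, and 70.9% and 71.5% in sh60 replicates 1 and 2.

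Among the 4 spindle motors of the contrast, KIFC1 and KIF20A fell in sh60, and KIF11 and KIF23 had lower values that did not pass. Across the 4 the log2 fold changes had a median of -0.31. In each of them both sh60 libraries were below both LacZ libraries, as in 32.3% of all genes tested. In bulk RNA, fewer cells in mitosis and less mRNA per dividing cell cannot be told apart. KIFC1 (hg19 chromosome 6, 33359313 to 33377699), a minus-end-directed motor that focuses spindle poles, measured 93.2 CPM in LacZ replicate 1, 96.01 in LacZ replicate 3, 67.3 in sh60 replicate 1 and 75.8 in sh60 replicate 2. Both LacZ values lay well above both sh60 values (log2 fold change -0.40 with an SE of 0.0919, adjusted p = 0.00293 by edgeR). The gene is also annotated on 2 alternative haplotype sequences, and reads placed in several places were not counted, so its level is uncertain. KIF20A (chromosome 5, 137514417 to 137523404), a motor of the midzone that is needed for cytokinesis, measured 183.9 CPM in LacZ replicate 1, 186.3 in LacZ replicate 3, 141.1 in sh60 replicate 1 and 139.4 in sh60 replicate 2. Its sh60 libraries nearly coincided, at a level 24.2% lower (log2 fold change -0.40 with an SE of 0.0805, adjusted p = 0.00103 by edgeR).

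KIF11 (chromosome 10, 94352825 to 94415152), also called Eg5, slides antiparallel microtubules apart so that the spindle becomes bipolar. It measured 180.0 CPM in LacZ replicate 1, 182.6 in LacZ replicate 3, 168.8 in sh60 replicate 1 and 141.8 in sh60 replicate 2, so sh60 replicate 1 lay nearer to LacZ than to sh60 replicate 2 (log2 fold change -0.22 with an SE of 0.0905, adjusted p = 0.0729 by edgeR). KIF23 (chromosome 15, 69706585 to 69740766), the motor of the centralspindlin complex, measured 213.7 CPM in LacZ replicate 1, 212.8 in LacZ replicate 3, 210.8 in sh60 replicate 1 and 187.7 in sh60 replicate 2. Here sh60 replicate 1 was close to LacZ and only sh60 replicate 2 stood clearly lower (log2 fold change -0.10 with an SE of 0.0837, adjusted p = 0.419 by edgeR, 95% confidence interval -0.27 to 0.08). Without sh60 replicate 1 both passed (edgeR adjusted p = 5.84e-05 for KIF11 and 0.0165 for KIF23), as they did with GC and length trends removed (0.000605 and 0.0144). KIF11 also passed with upper-quartile scaling (0.0285). KIFC1 and KIF20A no longer passed without LacZ replicate 1 (adjusted p by edgeR = 0.0573 and 0.0504) and without LacZ replicate 3 (0.107 and 0.0716). For KIFC1 the log2 fold change was -0.42 in the first case and -0.38 in the second.

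Promoters of late cell-cycle genes are known for CCAAT boxes and for the cell cycle genes homology region, or CHR, a short element bound by complexes that silence these genes outside the dividing phase. Sequences before the annotated start are shown for the 4 spindle motors, for KIF15 and KIF4A, which fell with them, and for KIF1C, a transport motor that rose. They are from RefSeq on GRCh38.p14, 5′ to 3′ on the gene's strand, with matches on either strand in capitals, so that ATTGG is a CCAAT box and TTCAAA a CHR read on the other strand. The words searched were the CCAAT box, the CHR as TTTGAA, a variant of the CHR as TTTAAA, and E2F sites as TTTCCCGC or its relative TTTGGCGC. Stretches that GENCODE annotates as exon are cut to a site of 30 bases.
KIFC1 (chr6:33391764-33391793, + strand): ggcgacagcgacgATTGGtccctgcgtgca
KIF20A (chr5:138179032-138179061, + strand): gcttccctatctgATTGGccgaacgaacgc
KIF11 (chr10:92592980-92593129, + strand): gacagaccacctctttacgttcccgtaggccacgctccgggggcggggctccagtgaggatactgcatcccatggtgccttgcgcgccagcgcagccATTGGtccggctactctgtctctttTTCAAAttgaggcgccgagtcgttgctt
KIF23 (chr15:69414282-69414311, + strand): ctgATTGGcccgTTTGAAatgcgccaggcg
KIF15 (chr3:44761747-44761776, + strand): ccaaGCGCCAAATTCAAAtttgcggccatc
KIF4A (chrX:70289980-70290089, + strand): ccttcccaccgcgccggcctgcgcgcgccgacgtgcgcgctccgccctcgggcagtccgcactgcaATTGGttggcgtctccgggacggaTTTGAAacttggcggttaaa
KIF1C (chr17:4997800-4997947, + strand): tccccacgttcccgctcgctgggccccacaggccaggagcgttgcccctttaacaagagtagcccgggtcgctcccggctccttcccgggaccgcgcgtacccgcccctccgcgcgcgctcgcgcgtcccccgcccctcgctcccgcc
In KIF23 the CCAAT box and the CHR stand 64 and 55 bases before the start, in KIF11 53 and 28, and in KIF4A 58 and 34, in the same order in each. The start used for KIF11 lies 156 bases from the nearest GENCODE start, so its distances depend on the annotation. The site shown for KIF20A is its CCAAT box 67 bases before the start; a TTTAAA stands 41 bases before it.

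The search covered the 250 bases before the start in the 34 kinesins with an entry. For some, that start lies far from any GENCODE start: 17897 bases for KIF24, 531 for KIF25, 367 for KIF1A and 235 for KIF1B. KIF24 and KIF1B are among the other kinesins with CCAAT, so the counts depend on the start chosen. CCAAT was found in 4 of 4 spindle motors of the contrast, in 11 of all 15 mitotic motors (73.3%) and in 6 of 19 other kinesins (31.6%), against 33% of 27305 promoters of the same length. TTTGAA was found in 5 mitotic motors (33.3%) and in 1 other kinesin, KIF5B (5.26%), against 13.6% of all promoters. Both together were in 4 mitotic motors (26.7%), KIF11, KIF23, KIF4A and KIF18A, and in KIF5B, against 4.85% of all. TTTAAA was found in 3 mitotic motors (20%) and in 1 other kinesin, KIF16B (5.26%), against 11.4% of all. The E2F words were found in 1 mitotic motor, KIF15 (6.67%), and in 1 other kinesin, KIF25 (5.26%), against 1.96% of all. Among 11586 promoters of tested genes, 34.4% held CCAAT, 8.73% TTTGAA, 3.43% both of these, 7.66% TTTAAA and 2.99% an E2F word. In KIF15 the CHR and E2F words stand directly side by side without overlap. Of the kinesins that rose, 4 had an entry and 0 held any of these words, too few to compare. Of those that fell, 11 had an entry, and 7 of them held CCAAT and 3 TTTGAA. KIF2C, KIF5C and KIF26A, which fell, held none of these words. Of the 5 mitotic motors with TTTGAA, KIF15, KIF18A and KIF4A fell and KIF11 and KIF23 did not pass. A match describes letters in this window and is not evidence of binding.

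The other mitotic motors had log2 fold changes below 0 in all 10 tested. Of these, 7 fell (13.0% of all genes tested fell), 0 rose and 3 did not pass, with a median log2 fold change of -0.27. KIF15 (chromosome 3, 44803209 to 44894748), which helps KIF11 keep spindle poles apart, had the largest change among the well-expressed ones, with 138.3 and 145.2 CPM in LacZ against 115.3 and 96.00 CPM in sh60 (log2 fold change -0.42 with an SE of 0.0943, adjusted p = 0.00232 by edgeR). KIF18A (chromosome 11, 28042163 to 28129746), which dampens chromosome oscillation at the metaphase plate, had 39.8 and 39.3 CPM in LacZ against 32.1 and 28.8 CPM in sh60 (log2 fold change -0.38 with an SE of 0.102, adjusted p = 0.00895 by edgeR). Its paralog KIF18B (chromosome 17, 43002079 to 43025079), a regulator of astral microtubules, had 81.3 and 85.1 CPM in LacZ against 64.6 and 69.8 CPM in sh60 (log2 fold change -0.31 with an SE of 0.0908, adjusted p = 0.0163 by edgeR). In all 3 genes neither sh60 library reached a LacZ library, as in 32.3% of all genes tested. Without LacZ replicate 1, KIF15 alone of them passed, and without LacZ replicate 3 none of them did.

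KIF4A, a chromokinesin that also shortens midzone microtubules, had 185.4 and 184.4 CPM in LacZ against 157.1 and 146.7 CPM in sh60 (log2 fold change -0.28). KIF22 had 164.1 and 168.8 CPM in LacZ against 136.1 and 142.5 CPM in sh60 (log2 fold change -0.26) and KIF2C, also called MCAK, 211.4 and 219.4 CPM in LacZ against 181.8 and 188.1 CPM in sh60 (log2 fold change -0.22, edgeR adjusted p = 0.0472). KIF2C did not pass with library totals alone (0.0814) or without a count filter (0.0547). None of KIF4A, KIF22 and KIF2C passed without LacZ replicate 1 or without LacZ replicate 3. Their log2 fold changes stayed below 0 under each of the 12 alternatives. KIF4B, a copy of KIF4A without introns, was low, with 1.73 and 1.896 CPM in LacZ against 1.38 and 0.751 CPM in sh60 (log2 fold change -0.80, edgeR adjusted p = 0.0457), and was not called by DESeq2 (adjusted p = 0.198), with library totals (0.0502) or without LacZ replicate 1, LacZ replicate 3 or sh60 replicate 2. KIF4B is nearly identical to KIF4A, so its reads are uncertain. These falls were small outside KIF4B, from 14.1% to 25.5%.

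KIF14, KIF20B and KIF2A did not pass. KIF14, a cytokinesis motor, had 146.4 and 149.6 CPM in LacZ against 140.1 and 112.4 CPM in sh60 (log2 fold change -0.23, edgeR adjusted p = 0.0865), and passed without sh60 replicate 1 (2.26e-05). For KIF20B, a cytokinesis and neural progenitor motor, the groups overlapped at 124.6 and 124.3 CPM in LacZ against 130.5 and 98.2 CPM in sh60 (log2 fold change -0.12), as they did for KIF2A, a depolymerase of spindle poles and neurites, at 102.2 and 106.3 CPM in LacZ against 106.5 and 91.98 CPM in sh60 (log2 fold change -0.07). With GC and length trends removed KIF14 and KIF20B were called lower, as KIF14 was with upper-quartile scaling. Over the 12 alternatives log2 fold changes ran from -0.4 to -0.08 for KIF14, -0.34 to 0.07 for KIF20B and -0.18 to 0.03 for KIF2A. KIF2B had 0 counts in every library.

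Taking both sets, 9 of 14 tested mitotic motors fell (64.3%, against 13.0% of all genes tested) and 0 rose. At an unadjusted p under 0.05, 11 were lower and 0 higher by edgeR. DESeq2 called 8 lower and 0 higher, and limma-voom 9 and 0. Without LacZ replicate 3 the number was 0 by edgeR (5 at an unadjusted p under 0.05), without LacZ replicate 1 it was 1, and without sh60 replicate 1 it was 14. With upper-quartile scaling 11 were called lower, and with GC and length trends removed 13, among them all 4 spindle motors of the contrast. The number of all genes called lower was also smaller without either LacZ library. It was also larger without sh60 replicate 1, with upper-quartile scaling and with trends removed. In 10 of the 14, sh60 replicate 2 was the lowest library, and in the other 4 it was sh60 replicate 1.

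Genes that work with these motors on the spindle, among them the kinesin CENPE, had lower values in 24 of 25 cases. Of these spindle partners 10 fell (13.0% of all genes tested did) and 1 rose, while 14 did not pass, with a median log2 fold change of -0.23. INCENP, the scaffold of the chromosomal passenger complex, went from 137.7 to 104.9 CPM, the cyclin CCNB2 from 143.1 to 110.2 CPM and CDC20, which triggers anaphase, from 375.1 to 293.2 CPM. PRC1, which bundles midzone microtubules and recruits KIF4A, went the other way, with 93.6 CPM in LacZ replicate 1, 93.4 in LacZ replicate 3, 145.2 in sh60 replicate 1 and 139.5 in sh60 replicate 2. Both sh60 values lay far above both LacZ values (log2 fold change 0.61 with an SE of 0.0838, adjusted p = 2.91e-05 by edgeR), and it rose while KIF4A, KIF20A and INCENP fell. The summed level of the 25 genes was 5019.2 and 5098.0 CPM in LacZ and 4596.8 and 4185.1 CPM in sh60. Without LacZ replicate 3, 0 of them fell by edgeR (5 at an unadjusted p under 0.05) and 1 rose, without LacZ replicate 1, 3 fell, and without sh60 replicate 1, 24 fell. With upper-quartile scaling 17 fell, and with GC and length trends removed 24. The number of all genes called lower moved in the same direction in each of these settings.

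The 9 transport motors went in both directions in sh60. There 3 rose and 1 fell (15.8% and 13.0% of all genes tested), and 5 did not pass, with a median log2 fold change of 0.10. Leaving out sh60 replicate 1 brought this median to -0.01, and removing trends in GC content and length brought it to 0. KIF1A (chromosome 2, 241653181 to 241759725), the motor of synaptic vesicle precursors in axons, rose from low levels, with 18.3 CPM in LacZ replicate 1, 17.7 in LacZ replicate 3, 27.8 in sh60 replicate 1 and 26.2 in sh60 replicate 2. Both sh60 values were clearly higher (log2 fold change 0.58 with an SE of 0.108, adjusted p = 0.000495 by edgeR), and the call held without any single library. KIF1C (chromosome 17, 4901243 to 4931694), a motor for dense-core vesicles and integrins, had 92.7 CPM in LacZ replicate 1, 88.6 in LacZ replicate 3, 122.9 in sh60 replicate 1 and 125.2 in sh60 replicate 2. Its sh60 libraries nearly coincided at a level 36.8% higher (log2 fold change 0.45 with an SE of 0.08495, adjusted p = 0.000569 by edgeR), which did not pass without LacZ replicate 3 (edgeR adjusted p = 0.0672). KIF1B (chromosome 1, 10270764 to 10441661), a mitochondrial and vesicle motor, overlapped at 100.8 and 96.4 CPM in LacZ against 107.3 and 98.1 CPM in sh60 (log2 fold change 0.06, 95% confidence interval -0.13 to 0.24).

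The KIF3 genes encode kinesin-2, a motor of cilia and of vesicles made of KIF3A with KIF3B or KIF3C, and none of them passed. KIF3A (chromosome 5, 132028319 to 132073270) had 24.2 and 20.03 CPM in LacZ against 28.6 and 23.3 CPM in sh60 (log2 fold change 0.22, edgeR adjusted p = 0.199). KIF3B (chromosome 20, 30865454 to 30922811) had 64.5 and 65.2 CPM in LacZ against 67.5 and 61.5 CPM in sh60 (log2 fold change -0.01, 95% confidence interval -0.20 to 0.19). KIF3C (chromosome 2, 26149455 to 26205443) had 55.6 and 51.6 CPM in LacZ against 44.2 and 48.7 CPM in sh60 (log2 fold change -0.21, edgeR adjusted p = 0.128). Only in KIF3C did the groups not overlap, with both sh60 libraries lower, as in 32.3% of all genes tested. KIF3A and KIF3C passed without sh60 replicate 2 (edgeR adjusted p = 0.02598 and 0.0168), with KIF3A higher and KIF3C lower. KIF3C was also called lower with GC and length trends removed. KIFAP3, the cargo adaptor of kinesin-2, did not pass (log2 fold change 0.21, edgeR adjusted p = 0.233).

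The KIF5 genes encode conventional kinesin, which hauls mitochondria, vesicles and RNA granules; KIF5C fell, KIF5A rose and KIF5B did not pass. KIF5C (chromosome 2, 149632792 to 149883273), which is enriched in neurons, measured 139.4 CPM in LacZ replicate 1, 139.2 in LacZ replicate 3, 61.9 in sh60 replicate 1 and 49.98 in sh60 replicate 2. The LacZ libraries nearly coincided, and both sh60 values were far below them. By the fit the level was 2.49-fold lower (log2 fold change -1.32 with an SE of 0.101, adjusted p = 5.56e-08 by edgeR, 95% confidence interval -1.53 to -1.11). The group levels were 139.3 ± 0.1601 CPM in LacZ and 55.9 ± 8.43 CPM in sh60 (SD, n = 2 each). KIF5A (chromosome 12, 57943847 to 57978554), the other neuron-enriched form, rose, with 11.8 and 11.7 CPM in LacZ against 16.1 and 14.2 CPM in sh60 (log2 fold change 0.37 with an SE of 0.124, adjusted p = 0.0334 by edgeR). That call was lost without LacZ replicate 1, without LacZ replicate 3, without sh60 replicate 1 and by DESeq2 (adjusted p = 0.152, 0.188, 0.128 and 0.0715). KIF5B (chromosome 10, 32297938 to 32345371), the form of most cells, overlapped at 226.9 and 215.3 CPM in LacZ against 260.6 and 212.4 CPM in sh60 (log2 fold change 0.10 with an SE of 0.0936, adjusted p = 0.484 by edgeR), and was called higher without sh60 replicate 2 (edgeR adjusted p = 0.00497).

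Neuron markers were given beside these genes because KIF1A, KIF5A and KIF5C are enriched in neurons. Of 12 neuron markers, 5 rose, 2 fell and 5 did not pass (15.8% of all genes tested rose and 13.0% fell), and none was at 0 in every library. Log2 fold changes were below 0 in 7 of the 12, with a median of -0.08. SNAP25 went from 1.29 to 6.53 CPM, MAP2 from 62.1 to 113.5 CPM and RBFOX3, which encodes NeuN, from 9.64 to 4.53 CPM. Summed, they measured 387.3 and 356.2 CPM in LacZ and 458.4 and 429.1 CPM in sh60. Of 8 fibroblast markers, 4 rose and 1 fell (15.8% and 13.0% of all genes tested), with sums of 521.0 and 424.4 CPM in LacZ and 910.9 and 1074.4 CPM in sh60, of which COL1A1 gave 141.4 and 84.9 CPM in LacZ and 553.7 and 684.0 CPM in sh60. Of 8 blood cell markers, PTPRC and HBB were at 0 in every library and 6 were not tested. Of the 2 tested, CSF1R did not pass and LYZ rose (15.8% of all genes tested rose). LYZ was low, going from 0.278 to 0.684 CPM (log2 fold change 1.31, adjusted p = 0.0439 by edgeR). This list summed to 1.35 and 1.60 CPM in LacZ and 1.62 and 1.35 CPM in sh60. The part of such cells or states in the kinesin changes was not tested.

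Set against each other, the summed level of the 4 spindle motors was lower in both sh60 libraries, whereas that of the 9 transport motors overlapped between the groups. The spindle motors summed to 180.3 and 182.3 RPKM in LacZ replicates 1 and 3 and to 155.4 and 146.5 RPKM in sh60 replicates 1 and 2. The transport motors summed to 105.2 and 101.1 RPKM in LacZ and to 105.8 and 94.0 RPKM in sh60, with sh60 replicate 2 lowest and sh60 replicate 1 highest. The ratio of the 2 sums, which does not depend on library scaling, was 1.71 and 1.80 in LacZ and 1.47 and 1.56 in sh60, and the groups did not overlap. KIF5B alone gave 36.2% to 41.8% of the transport sum. Within that sum KIF5C went from 19.1 RPKM in both LacZ libraries to 8.48 and 6.85 RPKM in sh60, while KIF1A, KIF1C and KIF5A rose. With 2 libraries against 2 an exact two-sided permutation test cannot go below p = 0.333, so no test is given.

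**Figure D3:**
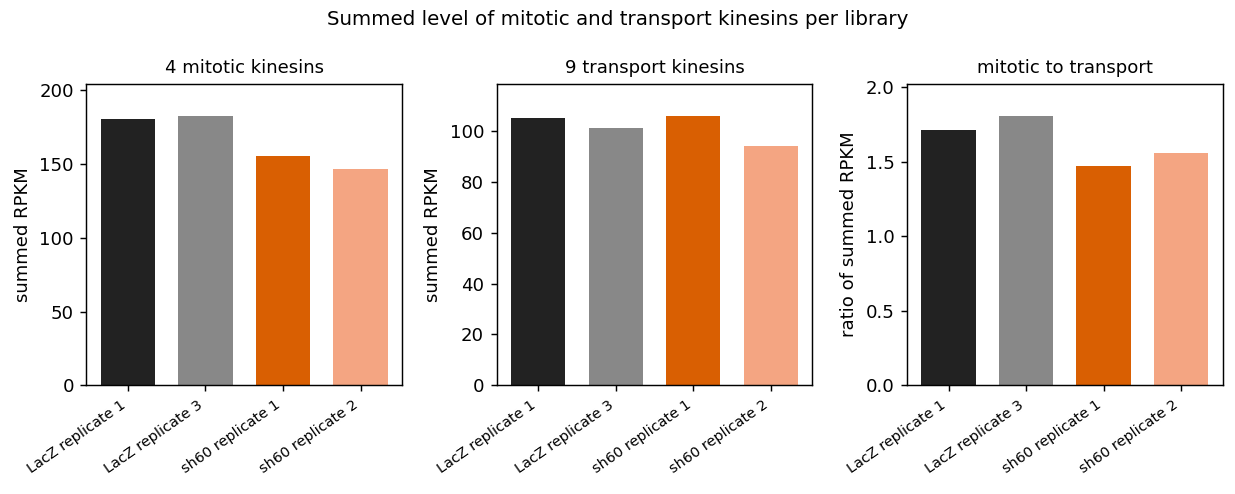
Summed RPKM of the 4 mitotic kinesins (KIF11, KIF20A, KIF23, KIFC1) and of the 9 transport kinesins of the KIF1, KIF3 and KIF5 types in each library, with the ratio of the sums; each bar is 1 library. The mitotic sum is 180.3 and 182.3 in LacZ against 155.4 and 146.5 in sh60, the transport sums overlap, and the ratio is 1.71 and 1.80 in LacZ against 1.47 and 1.56 in sh60.

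Among 7 other transport motors, 3 rose and 1 fell (15.8% and 13.0% of all genes tested), and 3 did not pass. KIF21B (chromosome 1, 200938514 to 200992828), a dendritic motor that slows microtubule growth, measured 43.7 CPM in LacZ replicate 1, 44.4 in LacZ replicate 3, 19.3 in sh60 replicate 1 and 18.3 in sh60 replicate 2. Libraries of a group lay close together, and the sh60 level was 2.34-fold lower (log2 fold change -1.23 with an SE of 0.102, adjusted p = 1.26e-07 by edgeR). The group levels were 44.1 ± 0.479 CPM in LacZ and 18.8 ± 0.712 CPM in sh60 (SD, n = 2 each). Its paralog KIF21A (chromosome 12, 39687030 to 39837192), a microtubule growth inhibitor, moved the opposite way, with 83.8 CPM in LacZ replicate 1, 86.9 in LacZ replicate 3, 120.3 in sh60 replicate 1 and 98.1 in sh60 replicate 2 (log2 fold change 0.35 with an SE of 0.09898, adjusted p = 0.0117 by edgeR). That rise was lost without either LacZ library (edgeR adjusted p = 0.162 without replicate 1 and 0.115 without replicate 3). KIF13A (chromosome 6, 17759414 to 17987854), an endosome motor, had 39.5 and 35.9 CPM in LacZ against 53.8 and 44.6 CPM in sh60 (log2 fold change 0.38 with an SE of 0.108, adjusted p = 0.01298 by edgeR; 0.246 without LacZ replicate 3).

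KIFC3 (chromosome 16, 57792129 to 57836439), a minus-end motor of epithelial junctions, had 33.95 and 30.2 CPM in LacZ against 37.7 and 45.5 CPM in sh60 (log2 fold change 0.37 with an SE of 0.111, adjusted p = 0.0168 by edgeR). It no longer passed without LacZ replicate 3 or without sh60 replicate 2 (adjusted p by edgeR = 0.296 and 0.0836). KIF13B, KIF16B and KIFC2 did not pass, with log2 fold changes of 0.11, -0.21 and -0.04 at low mean levels of 10.6 to 11.4 CPM, 8.58 to 7.44 CPM and 9.67 to 9.34 CPM from LacZ to sh60.

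The make-up of the KIF5 and KIF21 subfamilies differed between the groups. KIF5C gave 31.5% and 32.5% of the summed RPKM of the KIF5 genes in LacZ and 14.9% and 14.7% in sh60, while KIF5B went from 63.5% and 62.4% to 77.8% and 77.5%. The summed KIF5 level was 60.7 and 58.6 RPKM in LacZ and 56.9 and 46.6 RPKM in sh60. KIF21B gave 25.9% and 25.5% of the KIF21 sum in LacZ and 9.69% and 11.1% in sh60, and that sum overlapped between the groups (17.0 and 17.6 against 20.1 and 16.6 RPKM). Among the KIF1 genes KIF1B held 31.5% in both LacZ libraries and 26.6% and 24.7% in sh60. KIF3C held 41.6% and 40.7% of the KIF3 sum in LacZ and 34.3% and 39.5% in sh60. These shares are values per library with no test.

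**Figure D4:**
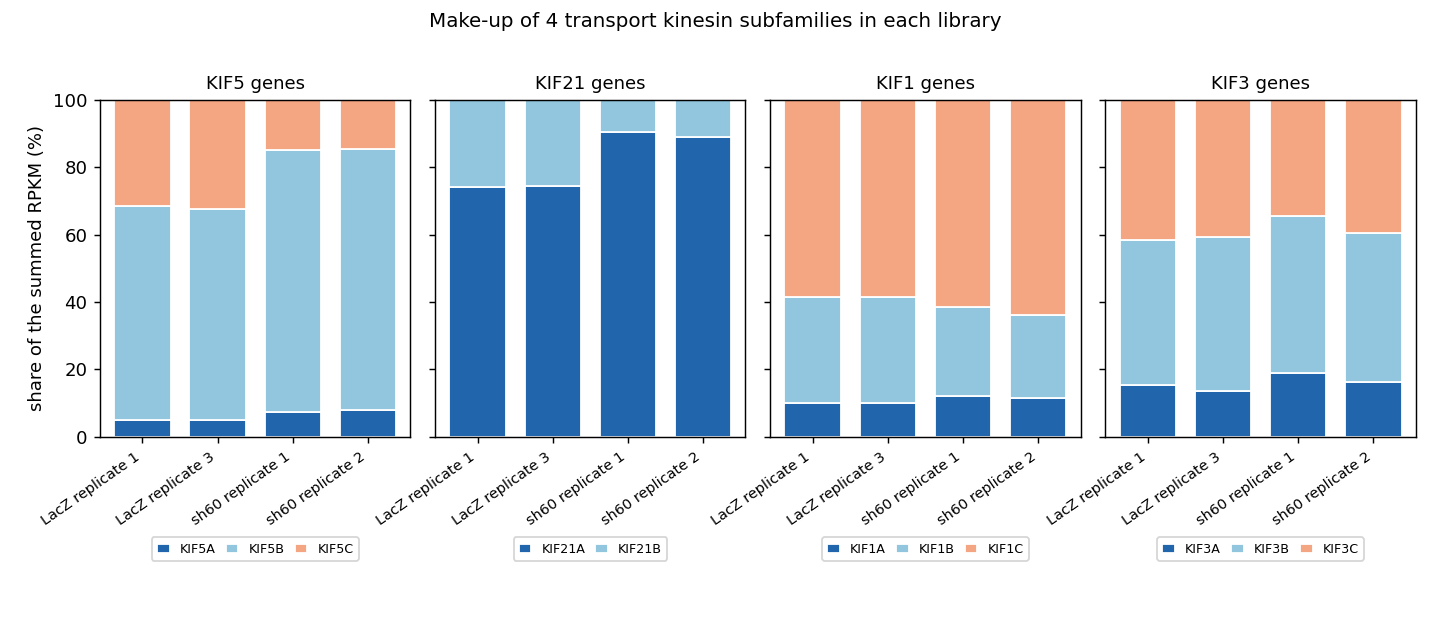
Share of the summed RPKM of each subfamily held by its members, for the KIF5, KIF21, KIF1 and KIF3 genes; each stacked bar is 1 library and adds to 100%. KIF5C holds 31.5% and 32.5% in LacZ against 14.9% and 14.7% in sh60, and KIF21B 25.9% and 25.5% against 9.69% and 11.1%.

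Among kinesins of cilia and centrioles none passed. Of 7, 5 were tested, and 0 fell or rose by edgeR (2 lower and 0 higher at an unadjusted p under 0.05; 0 by DESeq2 and limma-voom). KIF7, which sits at the ciliary tip and tunes Hedgehog signalling, was the best expressed, with 45.02 and 40.9 CPM in LacZ against 41.8 and 45.3 CPM in sh60 (log2 fold change 0.02, 95% confidence interval -0.19 to 0.23). KIF24, a centriolar depolymerase, had 20.9 and 21.99 CPM in LacZ against 18.2 and 18.2 CPM in sh60 and KIF27, a KIF7 relative, 6.43 and 6.75 CPM in LacZ against 5.84 and 4.595 CPM in sh60. Their log2 fold changes were -0.24 and -0.34, and both passed with GC and length trends removed (edgeR adjusted p = 0.0161 and 0.0248). KIF9, a motor of motile cilia, and KIF17, a motor of cilia and dendrites, had log2 fold changes of 0.15 and 0.27. KIF6 (7 to 12 counts) and KIF19 (3 to 7 counts), of motile cilia, were too low to test.

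Of the remaining kinesins, KIF26A (chromosome 14, 104605060 to 104647235), an atypical kinesin without ATPase activity that restrains growth factor signalling in enteric neurons, fell, with 43.2 CPM in LacZ replicate 1, 43.8 in LacZ replicate 3, 23.9 in sh60 replicate 1 and 27.1 in sh60 replicate 2. The groups were well apart, with sh60 41.3% lower by the fit (log2 fold change -0.77 with an SE of 0.103, adjusted p = 2.14e-05 by edgeR). Its paralog KIF26B had 18.8 and 16.1 CPM in LacZ against 15.2 and 14.8 CPM in sh60 without passing (adjusted p = 0.179 by edgeR, log2 fold change -0.22). KIF12 stayed below 1 CPM and did not pass (log2 fold change -0.88). KIF25 had 0 counts in both LacZ libraries and 3 and 4 in the sh60 libraries, at or near the 3 counts that a count of 0 allows, so no fold is given.

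A list of genes for kinesin light chains, cargo adaptors and other kinesin-associated proteins included 8 that rose and 1 that fell. With 21 tested, 12 did not pass (15.8% of all genes tested rose and 13.0% fell), with a median log2 fold change of 0.25. TRAK2 and TRAK1, which link KIF5 motors to mitochondria, went from 43.2 to 64.3 CPM and from 61.4 to 79.5 CPM. MAPK8IP1, which encodes the adaptor JIP1, went from 21.6 to 31.04 CPM, and KIAA1279, which encodes the kinesin-binding protein KBP, from 41.98 to 54.8 CPM. The one that fell was LRP8, a receptor carried by kinesin (129.4 to 106.8 CPM), named after its value was seen. Of the KIF5 motors, KIF5C fell, KIF5A rose and KIF5B did not pass, and a link to TRAK1 and TRAK2 was not tested. Without LacZ replicate 1, 3 of the list rose and 0 fell, and without LacZ replicate 3, 2 rose and 0 fell.

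Cytoplasmic dynein, the motor that walks the other way, had 24 tested genes with those of dynactin. Of them 7 rose and 1 fell, and 16 did not pass (15.8% of all genes tested rose and 13.0% fell), with a median log2 fold change of 0.11. The light chain genes DYNLT3 and DYNLRB1 went from 14.5 to 33.4 CPM and from 54.5 to 107.4 CPM, the adaptor gene BICD2 from 58.5 to 90.5 CPM and the heavy chain gene DYNC1H1 from 347.8 to 458.3 CPM. NDE1, a dynein regulator also used in mitosis, fell (45.5 to 33.7 CPM) and was named after its value was seen. Of 23 intraflagellar transport genes, which kinesin-2 moves along cilia, 7 rose and 1 fell, and 15 did not pass (over all genes tested, 15.8% and 13.0%), with a median log2 fold change of 0.13. IFT20 went from 6.43 to 10.6 CPM, IFT81 from 50.9 to 71.3 CPM, IFT22 from 18.4 to 25.7 CPM and DYNC2H1 from 17.2 to 24.9 CPM; the 1 that fell was IFT140 (edgeR adjusted p = 0.0398), named after its value was seen, and it was not called by DESeq2. Without LacZ replicate 3, 3 dynein genes and 2 intraflagellar transport genes rose.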

How the data were processed

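The deposited values are counts, whole numbers of reads per gene as featureCounts wrote them, per the file headers, with 1 table per library. The submitters' processing notes name STAR 2.7.6a and hg19. Reads were counted over exons with featureCounts 2.0.0 at strand setting 2, per the file headers, with no option for reads that map to several places. Per the labels' protocols, sequencing was single-end from a stranded kit. Counts of the LacZ pair gave a chi-square of 5.89 per degree of freedom and those of the sh60 pair 15.8, so each library was counted separately.

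All 4 libraries were fitted with edgeR 4.0.16 (R 4.3.3; quasi-likelihood test, TMM, filterByExpr, group as the only term), which kept 16040 of 26364 genes; p-values were adjusted by Benjamini-Hochberg over all of them. The fit was tested on simulated data. RPKM used exon length on primary chromosomes. Alternatives were other scalings, filters, DESeq2 1.42.0, limma-voom (limma 3.58.1), GC and length trends removed (GENCODE transcripts, 94.2% of tested genes matched by symbol) and each library left out. Promoters came from RefSeq (GRCh38.p14); 34 of 42 kinesins had one.

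The members, lists and tests were chosen with earlier results of these data known. Always named were BEND3 and the 13 motors of the contrast, then other kinesins past the threshold with a log2 fold change of at least 0.3 in size, and up to 4 members of each list by smallest p; further kinesins are named to account for every member. Confidence intervals are at 95%.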

Additional observations from a re-analysis of the deposited data

How the results depend on the processing

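Of the 12 alternatives, DESeq2 size factors, upper-quartile scaling, library totals, DESeq2, limma-voom, no count filter and a filter of 1 CPM in 2 libraries gave between 10 and 14 kinesins lower and 5 or 6 higher. Removing trends in GC content and length gave 19 lower and 6 higher. Leaving out 1 library at a time gave 3 to 18 lower, 1 to 7 higher and 0 to 14 mitotic motors lower; in those fits a group of 1 library is assumed to vary like the other group. Those extremes were 3 lower, 1 higher and 0 mitotic motors lower without LacZ replicate 3, and 18 lower and 14 mitotic motors lower without sh60 replicate 1. Over all genes tested, calls were also fewest without LacZ replicate 3. Genes called lower were most numerous without sh60 replicate 1 among these fits. The cause was not tested. The median log2 fold change of the 4 spindle motors ranged from -0.34 to -0.25 when single libraries were left out, and that of the 9 transport motors ranged from -0.01 (without sh60 replicate 1) to 0.24. With GC and length trends removed these medians were -0.35 and 0, beside -0.038 over all genes tested. As the mitotic and transport kinesin level per library, the ratio in sh60 over that in LacZ was 0.861, and 0.835 to 0.886 with any 1 library left out, an alternative added after seeing the data.

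Signs turned only for kinesins that had not passed. With single libraries left out, log2 fold changes ran from -0.01 to 0.12 for KIF1B, -0.06 to 0.24 for KIF5B, -0.34 to 0.07 for KIF20B, -0.18 to 0.03 for KIF2A, -0.08 to 0.06 for KIF3B, -0.05 to 0.10 for KIF7, -0.11 to 0.03 for KIFC2 and -0.12 to 0.07 for STARD9. KIF1B was also at -0.07 with GC and length trends removed, KIF3B at 0.02 with library totals and KIF7 at -0.01 with upper-quartile scaling. No paired analysis was possible because the groups share only 1 replicate number. Low counts limit KIF6, KIF19, KIF25 and KIF2B, which were not tested.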

Other observations

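Kinesins that carry other names were not members. CENPE, the kinetochore motor also called KIF10, had 105.6 and 101.9 CPM in LacZ against 102.3 and 74.4 CPM in sh60 without passing (adjusted p = 0.141 by edgeR, log2 fold change -0.23), and STARD9, a centrosomal kinesin, overlapped at 11.5 and 11.7 CPM in LacZ against 12.2 and 10.6 CPM in sh60. Among 16 tubulin genes, which build the tracks, 5 rose and 1 fell, and 10 did not pass (15.8% of all genes tested rose and 13.0% fell), with a median log2 fold change of 0.05. TUBB2A, a beta-tubulin, went from 198.1 to 346.3 CPM, TUBB2B from 182.9 to 276.2 CPM, TUBA1A from 265.1 to 364.2 CPM and TUBB3, the beta-tubulin known as a neuronal marker, from 141.8 to 188.9 CPM. The 1 that fell was TUBB, a widely expressed beta-tubulin gene (2470.4 to 2079.1 CPM), named after its value was seen. Tubulin genes are close in sequence, so reads that fit several of them were not counted and their levels are uncertain. Without LacZ replicate 3, 3 tubulin genes rose and 0 fell by edgeR.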
